A study of Homo sapiens with 3 samples.

Results

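The enzyme genes of asparagine, alanine, aspartate, glutamate, proline and branched-chain amino acid metabolism, ASNS, GPT2, PCK2, PYCR1, ALDH18A1, BCAT1, GOT1, GOT2 and GLUD1, 9 in all, were followed in leukaemia cells treated with pyrvinium. PCK2 is an enzyme of phosphoenolpyruvate synthesis and was listed with them. The genes were listed by name, with some results of these data already known, and were found by their Entrez identifiers among the 25702 genes of the deposited counts, so that the list is 9 of 25702 genes. All 9 passed the filter of at least 10 counts in at least 1 library, as did 12879 genes in all.

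The cells were Molm13, an established human line of acute myeloid leukemia with an FLT3 internal tandem duplication, grown in RPMI medium with serum. Asynchronous cultures were exposed for 6 h to the vehicle DMSO, to 50 nM pyrvinium or to 100 nM pyrvinium, an anthelmintic dye, and the question was which transcripts differ after the drug at each dose. Each condition has 1 library, so that no difference was checked on replicates, and all 3 libraries are of 1 cell line. The total count was 23165771 for DMSO, 22677038 for 50 nM and 24075123 for 100 nM.

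The labelled cell type was checked on marker genes. All 10 markers of leukaemic myeloid cells passed the filter, and together they had 24275 counts in DMSO, 25843 at 50 nM and 28941 at 100 nM. FLT3, the most abundant over the 3 libraries together, had 6304, 9012 and 11181 of these. The other 9 had 17971, 16831 and 17760, and their CPM, the counts scaled by library size, was 775, 744 and 737, so that their sum was lower after the drug while FLT3 was higher. At 100 nM FLT3, MEIS1 and MPO were called higher than in DMSO by the exact binomial test with adjustment over all tested genes, SPI1, HOXA9 and HOXA10 were called lower, and CD33, LYZ, CSF3R and ITGAM did not pass. Of 22 markers of other cell types, 15 had 0 counts in DMSO, 11 at 50 nM and 13 at 100 nM, and the 22 together had 199, 212 and 224 counts. Most of these were on PECAM1, with 156, 159 and 191 counts, while the epithelial and platelet markers were at 0 in each library. The part of these markers in the differences was not tested. In bulk RNA a different mix of cells and a different amount of a transcript per cell cannot be told apart.

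Asparagine synthetase (ASNS) makes asparagine from aspartate with the amide nitrogen of glutamine, and the aminotransferases GPT2, GOT1, GOT2 and BCAT1 pass amino groups between glutamate and alanine, aspartate or the branched-chain amino acids. GLUD1 links glutamate to 2-oxoglutarate, and ALDH18A1 and PYCR1 carry glutamate to proline. Several of these genes, ASNS foremost, are known targets of the transcription factor ATF4, which is translated when amino acids are short or when other stresses phosphorylate eIF2alpha, and leukaemic blasts of some patients depend on asparagine from outside, which is the basis of asparaginase treatment.

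Of the 9 enzymes, ASNS, PCK2 and GPT2 rose at both doses by at least 1.5-fold, and ASNS and PCK2 passed 2-fold at 100 nM. GOT1, BCAT1, GLUD1 and PYCR1 rose by less, and by nearly the same amount at both doses. GOT2 and ALDH18A1 were slightly lower at 100 nM. Each comparison below is the log2 ratio of counts scaled by library size with edgeR's TMM method, with a 95% exact (Clopper-Pearson) interval, and a gene was called where a two-sided exact binomial test, adjusted by Benjamini-Hochberg over the 12879 genes, gave a p of 0.05 or less. Such a test on reads sets 1 library against another and not 1 condition against another, and its intervals cover counting error only.

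At 100 nM against DMSO, 2 of the 9 enzymes were called at least 2-fold higher, where 1.72% of all tested genes were, and 3 of 9 were called at least 1.5-fold higher, where 4.31% were. With no fold threshold, 7 of 9 were called higher, against 21.1% of all genes, and 2 of 9 lower, against 22% of all genes. Calls with no fold threshold depend on depth. Each of the 9 had at least 1171 counts in DMSO, while the filter for all genes was 10 counts in at least 1 library. The share among genes of like depth was not computed. At 50 nM against DMSO, 0 of 9 were called 2-fold higher, against 0.699% of all genes, and 3 of 9 at least 1.5-fold higher, against 1.69%. With no fold threshold at 50 nM, 7 of 9 were called higher, against 14.3%, and 0 of 9 lower, against 13.9%. Between the doses, at 100 nM against 50 nM, 0 of 9 were called 2-fold higher, against 0.202%, and 0 of 9 at least 1.5-fold higher, against 0.683%. With no fold threshold between the doses, 3 of 9 were called higher, against 7.69%, and 2 of 9 lower, against 9.25%. The comparisons with DMSO share that library and are not independent of each other. With an assumed coefficient of variation of 0.1 between replicates in edgeR's exact test, ASNS, PCK2 and GPT2 stayed called at 100 nM, ASNS alone at 50 nM, and 0 of 9 between the doses, and none of the other 6 enzymes was called in either direction. The remaining calls end when replicates are assumed to vary by a coefficient of 0.2, which 1 library per condition cannot measure, and 0 of 9 enzymes were then called.

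**Figure D1:**
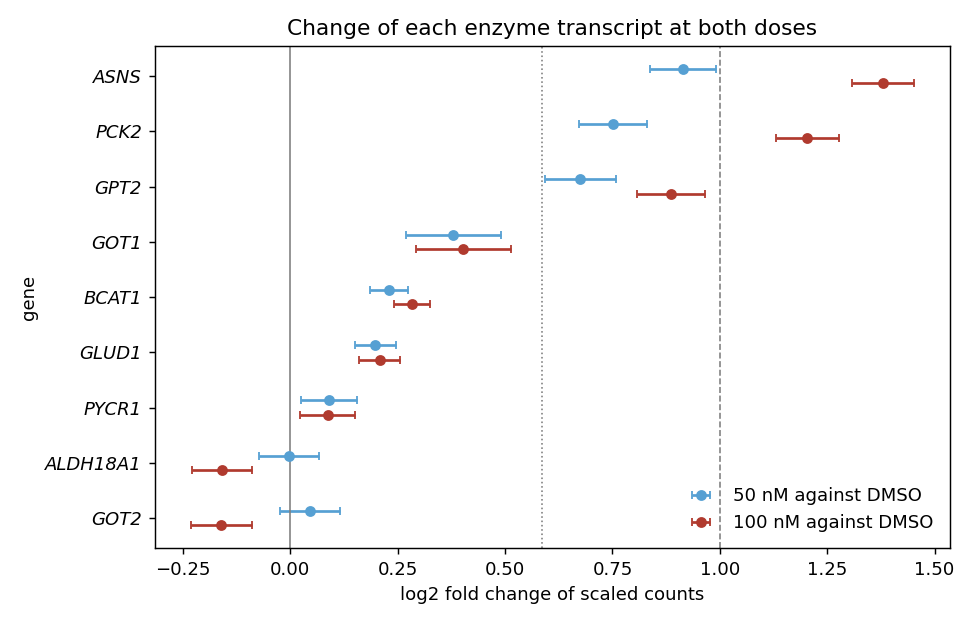
The log2 fold change of scaled counts (x axis) of each enzyme gene (y axis) at 50 nM (blue) and 100 nM (red) against the DMSO library, with 95% exact intervals that cover counting error only. The dotted line marks 1.5-fold and the dashed line 2-fold. ASNS and PCK2 at 100 nM lie beyond 2-fold, with GPT2 at 0.89, and the other 6 genes lie below 0.41.

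ASNS (Entrez 440) has 14 exons on the minus strand of chromosome 7 of hg19, from 97481429 to 97501854. It had 2162 counts in DMSO, 3978 at 50 nM and 5853 at 100 nM. ASNS was lowest in DMSO and highest at 100 nM. Its log2 fold change was 0.91 at 50 nM (interval 0.84 to 0.99) and 1.38 at 100 nM (1.31 to 1.45). The step from 50 nM to 100 nM was 0.47 (0.41 to 0.52), so that 66.2% of the log2 change at the higher dose was present at the lower dose. Among the 4965 genes with at least 1000 counts in DMSO, ASNS ranked 3 at 100 nM and 2 at 50 nM by log2 fold change.

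The promoter of ASNS holds a match to TGATGNAA, the letters of the C/EBP-ATF response element that ATF4 is known to bind. The promoter table of RefSeq (GRCh38.p14) spans from 250 bases before to 50 bases after a transcript start, and it has entries for 7 of the 9 enzymes, with none for GPT2 or PYCR1. Both strands were searched for TGATGNAA and for CACGTG, the E-box, which reads the same on both strands. Of all 35116 promoters, 3.62% hold TGATGNAA and 7.26% hold CACGTG, and of the 27305 genes with a promoter, 4.46% and 8.77% have one that does. TGATGNAA stands in a promoter of 3 of the 7 enzymes, ASNS, BCAT1 and GOT1, and CACGTG in a promoter of 2, ALDH18A1 and BCAT1. ASNS has 2 promoter entries and BCAT1 5, with a match to TGATGNAA in 1 of each, and a gene with several entries has more windows in which to match. The stretches that lie before a start are shown because they set genes with different log2 fold changes beside each other, ALDH18A1 among them, which did not rise, with the matching letters in capitals. They are on the minus strand, at chr7:97872433-97872512 for ASNS, chr12:24949131-24949160 for BCAT1, chr10:99430779-99430858 for GOT1 and chr10:95656806-95656883 for ALDH18A1.
ASNS: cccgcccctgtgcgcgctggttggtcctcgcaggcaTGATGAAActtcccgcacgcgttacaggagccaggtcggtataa
BCAT1: tgtcttcctgcTGATGCAAtccgctaggtc
GOT1: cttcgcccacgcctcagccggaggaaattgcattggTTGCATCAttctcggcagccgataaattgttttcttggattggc
ALDH18A1: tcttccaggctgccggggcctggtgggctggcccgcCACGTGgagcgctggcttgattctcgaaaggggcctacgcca

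The first letter of the match lies 68 bases before the start in ASNS, 48 in BCAT1 and 198 in GOT1, where it reads on the opposite strand to the gene. The CACGTG of ALDH18A1 begins 136 bases before its start. The windows of PCK2, GOT2 and GLUD1 hold neither motif, which says only that these letters are not in those windows. A match is a description of the sequence and not a bound site. At 100 nM the 3 enzymes with TGATGNAA had log2 fold changes of 1.38 (ASNS), 0.40 (GOT1) and 0.28 (BCAT1). The 4 without it in their windows had 1.20 (PCK2), 0.21 (GLUD1), -0.16 (ALDH18A1) and -0.16 (GOT2). The ranges overlap through PCK2, and no relation to the motif was tested over these 7 genes.

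GPT2 (Entrez 84706), the mitochondrial alanine aminotransferase, has 14 exons on the plus strand of chromosome 16 of hg19, from 46918308 to 46965201. It had 1971 counts in DMSO, 3073 at 50 nM and 3789 at 100 nM. GPT2 was lowest in DMSO, and more of its rise lay below 50 nM than above it. Its log2 fold change was 0.67 at 50 nM (interval 0.59 to 0.76) and 0.89 at 100 nM (0.81 to 0.97), and the step between the doses was 0.21 (0.14 to 0.28). At 50 nM the log2 change was 76.2% of that at 100 nM. GPT2 ranked 13 at 100 nM and 10 at 50 nM among the 4965 well-counted genes.

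PCK2 (Entrez 5106), the mitochondrial phosphoenolpyruvate carboxykinase, has 10 exons on the plus strand of chromosome 14 of hg19, from 24563483 to 24573339. It had 2085 counts in DMSO, 3426 at 50 nM and 4997 at 100 nM. As for ASNS, PCK2 was lowest in DMSO and highest at 100 nM. Its log2 fold change was 0.75 at 50 nM (interval 0.67 to 0.83) and 1.20 at 100 nM (1.13 to 1.28), with a step of 0.45 between the doses (0.39 to 0.52). PCK2 ranked 5 at 100 nM and 6 at 50 nM among the 4965 genes.

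By log2 fold change, ASNS stood before PCK2 and PCK2 before GPT2 at each dose and in the step between the doses. The genes and their order were read from the same values, so that the order is a description and was not tested. The counting intervals of PCK2 and GPT2 overlapped at 50 nM, and those of ASNS and PCK2 overlapped in the step between the doses.

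**Figure D2:**
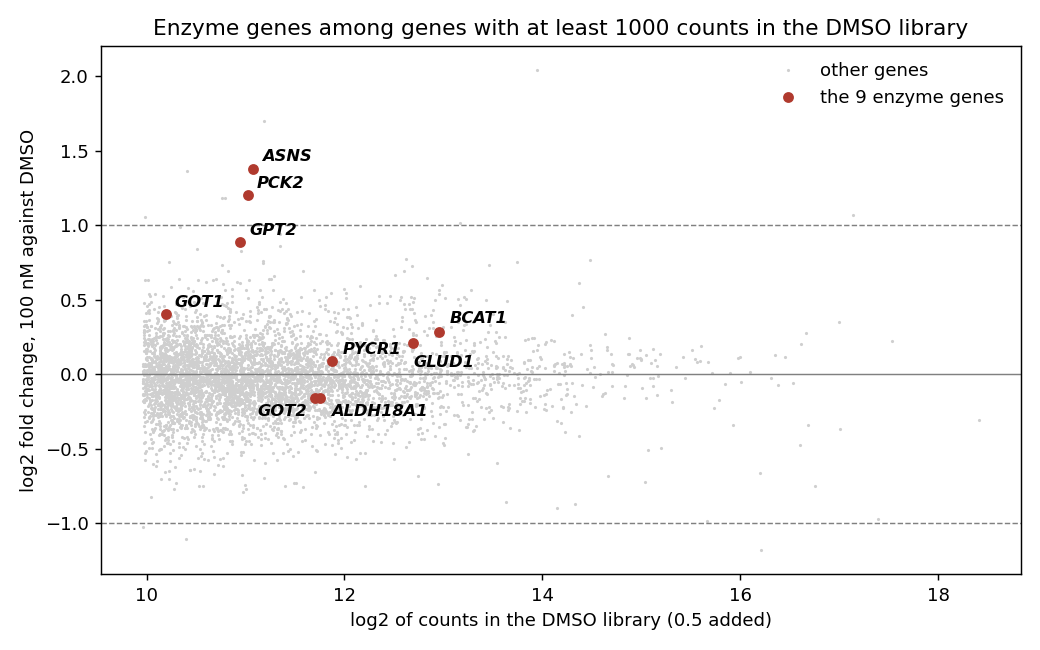
The log2 fold change at 100 nM against DMSO (y axis) against the log2 of counts in the DMSO library (x axis, 0.5 counts added) for the 4965 genes with at least 1000 counts in DMSO. Grey points are other genes, red points the 9 enzyme genes, and dashed lines mark 2-fold. ASNS, PCK2 and GPT2 lie near the top, at ranks 3, 5 and 13, and the other 6 lie below 0.41.

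The other 6 genes are best read against the spread of well-counted genes. Of the 4965 genes, the middle 90% had log2 fold changes from -0.37 to 0.35 at 100 nM, from -0.25 to 0.24 at 50 nM and from -0.19 to 0.16 between the doses. Of these 6, GOT1 lay above that range in both comparisons with DMSO, and GOT2 lay below it between the doses. BCAT1, GLUD1, PYCR1 and ALDH18A1 lay within it in each comparison, although their counting intervals are narrow.

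GOT1 and GOT2 are the cytosolic and mitochondrial aspartate aminotransferases, which act in the malate-aspartate shuttle together with malate dehydrogenases and mitochondrial carriers. GOT1 (Entrez 2805) has 9 exons on the minus strand of chromosome 10 of hg19, from 101156627 to 101190530, and had 1171 counts in DMSO, 1488 at 50 nM and 1611 at 100 nM. GOT2 (Entrez 2806) has 10 exons on the minus strand of chromosome 16, from 58741035 to 58768246, and had 3338, 3364 and 3106 counts in the same order. GOT1 was higher at both doses than in DMSO, and GOT2 was lowest at 100 nM.

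GOT1 had a log2 fold change of 0.38 at 50 nM (interval 0.27 to 0.49) and 0.40 at 100 nM (0.29 to 0.51). Between the doses GOT1 differed by 0.02, with an interval from -0.08 to 0.13, so that no step was detectable at this depth. GOT2 had 0.05 at 50 nM, with an interval of -0.02 to 0.12, and fell at 100 nM to -0.16 (-0.23 to -0.09). Between the doses GOT2 was lower by a log2 fold change of -0.21 (-0.28 to -0.14).

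The log2 fold changes of the isoenzymes therefore lay apart in these single libraries, by intervals that cover counting error only. The log2 fold change of GOT1 exceeded that of GOT2 by 0.33 at 50 nM (interval 0.20 to 0.46) and by 0.56 at 100 nM (0.43 to 0.69). In TPM, a share of all transcripts after each count is divided by its gene length, GOT1 made up 28.8% of the pair in DMSO, 33.7% at 50 nM and 37.4% at 100 nM. GOT2 was the more abundant of the pair in each library.

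BCAT1 (Entrez 586), the cytosolic branched-chain aminotransferase, has 13 exons on the minus strand of chromosome 12 of hg19, from 24962958 to 25102393. It had 7945 counts in DMSO, 9095 at 50 nM and 10061 at 100 nM, the most of the 9 genes, on the longest transcript model (10227 bases). BCAT1 was lowest in DMSO, with log2 fold changes of 0.23 at 50 nM (interval 0.19 to 0.27) and 0.28 at 100 nM (0.24 to 0.33). Its mitochondrial isoenzyme BCAT2 (Entrez 587) had 860, 815 and 816 counts and a log2 fold change at 100 nM of -0.13 (-0.27 to 0.01), which did not pass the test. The change of BCAT1 exceeded that of BCAT2 by 0.27 at 50 nM (0.13 to 0.42) and by 0.42 at 100 nM (0.27 to 0.56), and BCAT1 rose from 66.5% of the pair's TPM in DMSO to 72.6% at 100 nM.

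GLUD1 (Entrez 2746), glutamate dehydrogenase of the mitochondrial matrix, has 13 exons on the minus strand of chromosome 10 of hg19, from 88809959 to 88854776. It had 6635 counts in DMSO, 7430 at 50 nM and 7972 at 100 nM. GLUD1 rose by a log2 fold change of 0.20 at 50 nM (interval 0.15 to 0.25) and 0.21 at 100 nM (0.16 to 0.26), and the step between the doses was 0.01 (-0.04 to 0.06). It was thus lowest in DMSO and differed little between the doses.

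GLUD2 (Entrez 2747), an intronless retrocopy of GLUD1, had 1737, 1983 and 2217 counts. GLUD2 was lowest in DMSO. At 100 nM its log2 fold change of 0.29 (interval 0.20 to 0.39) differed from that of GLUD1 by less than counting error, with GLUD1 minus GLUD2 at -0.09 (-0.19 to 0.01). Of the 2436 different stretches of 50 bases in the annotated GLUD2 transcript, 31.7% also stand in transcripts of GLUD1, so that reads may have been counted on either gene. With GLUD1 and GLUD2 summed, the counts were 8372 in DMSO and 10189 at 100 nM, with a log2 fold change of 0.23 (0.18 to 0.27).

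The genes of proline synthesis had small differences. ALDH18A1 (Entrez 5832), which makes pyrroline-5-carboxylate from glutamate, has 18 exons on the minus strand of chromosome 10 of hg19, from 97365686 to 97416567, and had 3462 counts in DMSO, 3373 at 50 nM and 3226 at 100 nM. PYCR1 (Entrez 5831), a mitochondrial reductase that completes proline, has 7 exons on the minus strand of chromosome 17, from 79890267 to 79894968, and had 3742, 3891 and 4134 counts. ALDH18A1 was lowest at 100 nM, and PYCR1 was lowest in DMSO.

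ALDH18A1 had a log2 fold change of -0.003 at 50 nM (interval -0.07 to 0.07), a value whose sign turned under a stricter count filter, and of -0.16 at 100 nM (-0.23 to -0.09). PYCR1 had 0.09 at both 50 nM (0.03 to 0.16) and 100 nM (0.02 to 0.15). Both values of PYCR1 passed the test, with adjusted p of 0.0261 and 0.021 by the exact binomial test, and both lie where many genes do, since 77% and 72.7% of the well-counted genes were below it.

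PYCR3 (Entrez 65263), formerly PYCRL, an isoenzyme of PYCR1, had 1273 counts in DMSO, 1107 at 50 nM and 1157 at 100 nM. PYCR3 was highest in DMSO. Its log2 ratio of 100 nM to DMSO was -0.19 (interval -0.31 to -0.08), and the value of PYCR1 exceeded it by 0.28 (0.15 to 0.41).

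The partners of the 2 other mitochondrial enzymes were hardly counted. GPT (Entrez 2875), the cytosolic alanine aminotransferase, had 4 counts in DMSO, 4 at 50 nM and 7 at 100 nM, and did not pass the filter. GPT2 made up 99.5% of the pair's TPM in DMSO, 99.7% at 50 nM and 99.6% at 100 nM. PCK1 (Entrez 5105), the cytosolic carboxykinase, had 0 counts in each library, which allows a share of up to 1.32e-05% of the counts of the 50 nM library.

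Levels between genes were compared in TPM, from the counts and the deposited gene lengths. In the DMSO library GLUD1 was highest at 160 TPM, followed by PYCR1 at 152 and GOT2 at 114, and GPT2 was lowest at 39.2. ASNS at 71.8 TPM and PCK2 at 68.0 lay in the middle, with overlapping intervals (68.8 to 74.8 and 65.1 to 71.0), and the interval of BCAT1 (63.7 to 66.6) overlapped that of PCK2. The order differed after the drug.

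At 100 nM ASNS, with 190 TPM (185 to 195), and GLUD1, with 188 (184 to 192), shared the first place within counting error. PYCR1 at 165 TPM and PCK2 at 159 followed, again with overlapping intervals, and GOT1 was lowest at 62.1. At 50 nM ASNS had 136 TPM, next after GLUD1 and PYCR1. In DMSO 2278 of the 25702 genes had a higher TPM than ASNS, and 751 at 100 nM.

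Summed over the 9 genes, the level was 801 TPM in DMSO, 1001 at 50 nM and 1099 at 100 nM. ASNS, PCK2 and GPT2 together gave 22.4% of that sum in DMSO, 31.4% at 50 nM and 38.5% at 100 nM. The other 6 genes gave 622 TPM in DMSO, 687 at 50 nM and 676 at 100 nM, so that the sum of these 6 was not higher at 100 nM than at 50 nM. TPM depends on the other genes in the total, and mitochondrially encoded genes took 5.59%, 4.68% and 5.11% of the counts in the same order. These are shares of counts and not of TPM. Without the mitochondrially encoded genes in the total, each level is higher. ASNS then had 80.3 TPM in place of 71.8 in DMSO, 149 in place of 136 at 50 nM and 210 in place of 190 at 100 nM.

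**Figure D3:**
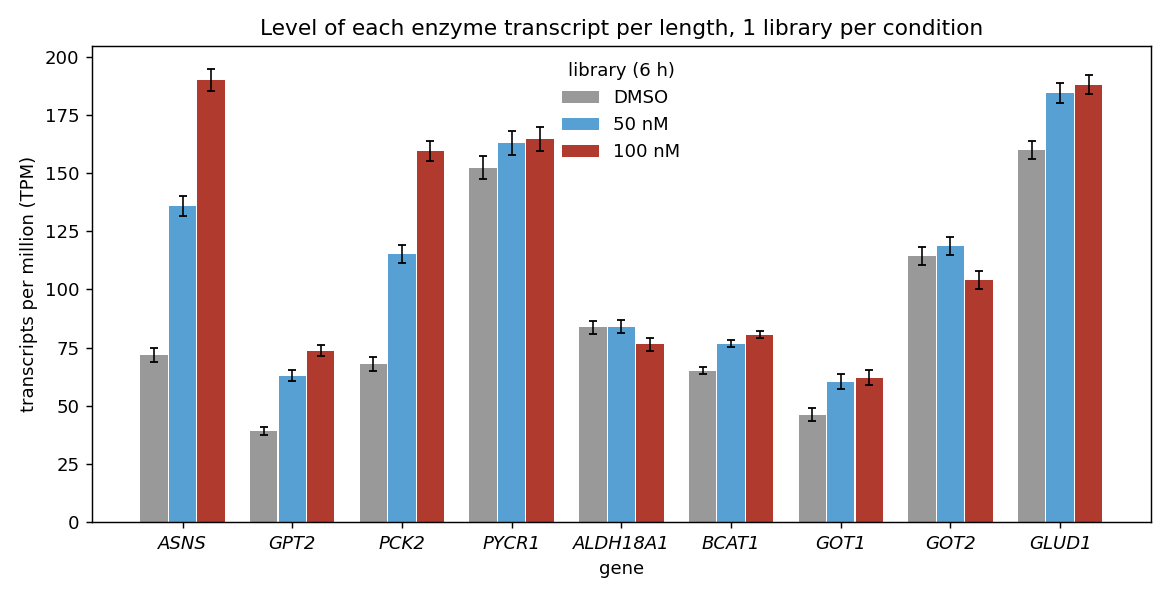
TPM, the level per length (y axis), of each enzyme gene (x axis) in the DMSO (grey), 50 nM (blue) and 100 nM (red) library, 1 library each, with 95% Poisson intervals of the count. ASNS rises from 71.8 to 190 TPM and PCK2 from 68.0 to 159, while PYCR1, ALDH18A1 and GOT2 stay near their level in DMSO.

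A linear trend over dose was fitted to all 3 libraries at once with edgeR's quasi-likelihood method. Its 1 residual degree of freedom holds the departure from a straight line and not the spread between replicates, so that its p-values are not used for calls here. The fitted log2 difference from DMSO to 100 nM was 1.36 for ASNS, 1.19 for PCK2 and 0.87 for GPT2. It was also upward for GOT1 (0.40), BCAT1 (0.28), GLUD1 (0.21) and PYCR1 (0.09), and it was downward for ALDH18A1 (-0.16) and GOT2 (-0.16).

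Outside the 9 enzymes, 68 genes of the same metabolism were listed, 59 of which passed the filter. At 100 nM 19 of the 59 were called higher and 16 lower, with no fold threshold, where 21.1% and 22% of all tested genes were. None of the 59 was called at 1.5-fold in either direction, where 4.31% of all genes were called at least 1.5-fold higher and 2.4% at least 1.5-fold lower. Their median log2 fold change was 0.06, against -0.002 over all tested genes and 0.28 over the 9 enzymes. At 50 nM 21 were called higher and 11 lower, where 14.3% and 13.9% of all genes were, with a median of 0.08.

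By group at 100 nM, the counts are to be read against the same 21.1% higher and 22% lower of all genes, and several lie near them. Of the 13 tested genes of glutamine and glutamate metabolism 6 were called higher and 3 lower, and of the 11 of aspartate and asparagine 3 were higher and 1 lower. Of the 15 genes of branched-chain amino acid breakdown 5 were higher and 2 lower, and of the 7 of proline metabolism 2 were higher and 3 lower. Of the 2 tested alanine genes 1 was higher and 1 lower. Of the 11 genes of phosphoenolpyruvate and the malate-aspartate shuttle 2 were higher and 6 lower, with a median of -0.16. At 50 nM 3 of these 11 were higher and 2 lower, where 14.3% and 13.9% of all genes were. Their median at 50 nM was -0.0000. Differences between the groups were not tested.

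Genes at the edges of these groups, named in the next sentences, were picked with their values in view. CAD, which starts pyrimidine synthesis from glutamine, had 6513 counts in DMSO, 8202 at 50 nM and 9724 at 100 nM, and a log2 fold change at 100 nM of 0.52 (interval 0.48 to 0.57). PC, pyruvate carboxylase, had 497, 645 and 763 counts and 0.56 (0.40 to 0.73). Both were highest at 100 nM. SLC25A12, a mitochondrial aspartate and glutamate carrier, fell from 1203 counts in DMSO to 900 at 50 nM and 837 at 100 nM, with a log2 fold change of -0.58 (-0.71 to -0.45), close to 1.5-fold lower.

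Other genes stood at the same edges. ASS1, which joins citrulline to aspartate, had 6064 counts in DMSO, 7765 at 50 nM and 8902 at 100 nM, with a log2 fold change of 0.50 (interval 0.45 to 0.54) at 100 nM. AARS1, the cytosolic alanyl-tRNA synthetase, had 6647, 8584 and 9874 counts and 0.51 (0.47 to 0.56). ASS1 and AARS1 were lowest in DMSO. ADSS1, with 8, 20 and 18 counts, and ABAT, with 32, 51 and 52, had larger log2 fold changes at 100 nM, 1.07 and 0.63, but their intervals hold 0.

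**Figure D4:**
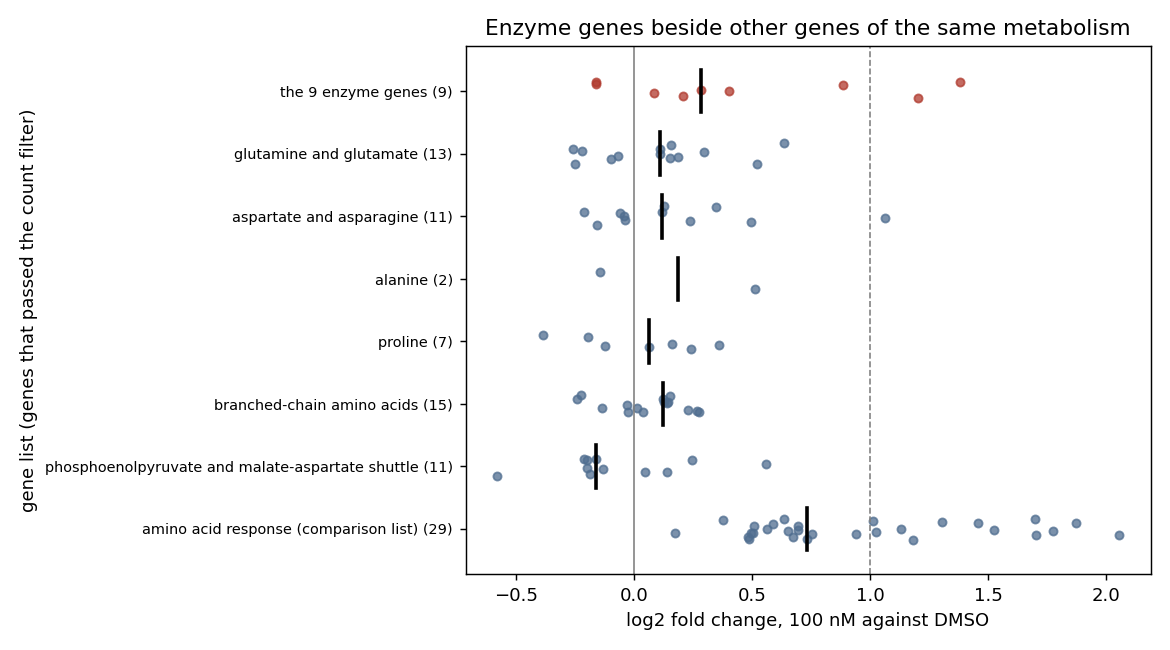
The log2 fold change at 100 nM against DMSO (x axis) of the genes in each list that passed the count filter (y axis, number of genes in parentheses). Points are genes, spread vertically for sight, the black bar is the median of the list, and the dashed line marks 2-fold. The medians of the 6 lists of the same metabolism lie between -0.16 and 0.19, that of the 9 enzymes at 0.28 and that of the amino acid response list at 0.73.

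A comparison list of 30 genes of the amino acid response had 29 genes that passed the filter, and 29 of 29 were called higher at 100 nM with no fold threshold, where 21.1% of all genes were. Of these, 12 passed 2-fold, where 1.72% of all genes did. These genes were listed with earlier results of the same libraries known, so that their direction is no independent support. The median log2 fold change was 0.73 at 100 nM and 0.47 at 50 nM. ATF4 itself (Entrez 468) had 12788 counts in DMSO, 16646 at 50 nM and 18669 at 100 nM, and a log2 fold change at 100 nM of 0.49 (interval 0.46 to 0.52). DDIT3 (Entrez 1649), which encodes the transcription factor CHOP, is in the same list and rose by 1.02. ASNS, PCK2 and GPT2 lie above the median of that list at 100 nM, and the other 6 enzymes below it.

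The genes whose pair of log2 fold changes at 50 nM and 100 nM lay nearest to that of ASNS were sought among 8982 other genes with at least 200 counts in DMSO. By Euclidean distance over these 2 comparisons, which share the DMSO library, they were SLC7A11, the cystine and glutamate exchanger (distance 0.11), VLDLR, a lipoprotein receptor (0.14), VEGFA, a vascular growth factor (0.14), STC2, a secreted glycoprotein (0.16), and the gene with Entrez identifier 645460 (0.18). SLC7A11 had 783 counts in DMSO, 1517 at 50 nM and 2234 at 100 nM, and VEGFA had 1363, 2276 and 3643. SLC7A11, VLDLR and STC2 are also on the amino acid response list, which holds 29 of the 12879 tested genes. The list was made with earlier results of these libraries known, and the nearest genes were picked by these values. Their overlap is therefore no independent support, and it was not tested.

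Nearest to GPT2 were P2RX1, an ATP-gated channel (distance 0.03), KICS2, a subunit of the KICSTOR complex (0.05), THNSL1 (0.05) and ADCK1 (0.06). P2RX1 had 344 counts in DMSO, 541 at 50 nM and 675 at 100 nM. A like order over the doses follows from how these genes were chosen. The step from 50 nM to 100 nM did not pass the exact binomial test in KICS2 (adjusted p 0.0983) or ADCK1 (adjusted p 0.214).

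Reads that could belong to more than 1 gene limit some of these values. In the deposited annotation none of the exonic bases of the 9 enzymes overlaps an exon of another gene on either strand. In transcripts of GENCODE 44 on GRCh37, the share of stretches of 50 bases that also stand in transcripts of genes at other places was 6.87% for GLUD1, 2.43% for ASNS, 1.19% for GOT2 and 0.784% for GPT2. It was 0 for PCK2, PYCR1, ALDH18A1 and GOT1, and 1 of 11452 stretches for BCAT1. The stretches were pooled over all annotated transcripts of a gene. For GLUD1 these were 27 transcripts with 15161 stretches, of which 1041 were shared. The counted model of GLUD1 has 3476 bases, so that the shared part of the counted model may be larger. That part was not measured. Counting also the genes annotated at the same place, 45.4% of the stretches of ASNS stand in transcripts of the Ensembl gene ENSG00000284707, and 9.47% of those of PYCR1 in transcripts of MYADML2.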

How the data were processed

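Strand-specific RNA libraries of Molm13, 1 for each of DMSO, 50 nM and 100 nM pyrvinium at 6 h, were grouped by the sample titles. The treatment label writes the higher dose without its prefix, and the dose in the title was taken. The authors used Rsubread with hg19 (GRCh37) for alignment, and the deposited counts per gene are whole numbers that were not normalized. Whether counting used the strand is not given in the sources used here. The authors' deposited table of EBSeq comparisons was not used.

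Symbols were attached to 23696 of 25702 Entrez identifiers with RefSeq. Libraries were scaled by TMM (edgeR 4.0.16, R 4.3.3). Log2 ratios had 0.5 counts added. The two-sided exact binomial p (scipy 1.17.1) was the smaller tail doubled, which pairs with the Clopper-Pearson interval. The other common definition, the sum over outcomes no likelier than the observed one, had also been run on these data when this choice was made, and the counts of calls over all genes differ between them. Intervals of differences between log2 fold changes came from log odds ratios. TPM used the deposited lengths. The procedure was tested on simulated counts with counting error only and with the library sizes given. Such data cannot show how replicates vary.

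Alternatives were other count filters, scaling by total counts, by DESeq2 1.42.0 size factors or by TMM with mitochondrially encoded genes left out, 5 counts added, edgeR's exact test with assumed variation, a dose trend, GLUD1 and GLUD2 summed, and TPM without mitochondrially encoded genes. The members and lists were chosen with earlier results of these data known. Genes named were the 9 enzymes, their isoenzymes, listed genes called at 1.5-fold at 100 nM, ATF4, DDIT3 and the nearest genes, some of which are not reported here. Other genes were picked once their values had been seen.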

Additional observations from a re-analysis of the deposited data

How the results depend on the processing

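With 1 library per condition the spread between replicates is unknown, and it is the setting that the calls depend on most. Where edgeR's exact test was given a coefficient of variation of 0.2 or 0.4 between replicates, the enzymes called at 100 nM were 0 at 2-fold and 0 at 1.5-fold, in place of 2 and 3. The log2 fold changes of ASNS (1.38) and PCK2 (1.20) then no longer passed, because the assumed spread widens the test. With 0.1, both counts at 100 nM were as before. Over all genes, the 2-fold rises at 100 nM numbered 222, against 114 with 0.1, 12 with 0.2, 0 with 0.4 and 119 with a filter of 50 counts, which tests fewer genes of low count. At 50 nM they numbered 90, against 21 with 0.1 and 34 with that filter, and between the doses 26, against 1 and 5. The 1.5-fold rises numbered 555 at 100 nM, 218 at 50 nM and 88 between the doses, against 176, 29 and 2 with 0.1. With 0.2, 12 such rises were left at 100 nM and 0 in the other comparisons, as with 0.4 in each. The doubled tail was kept as the two-sided p after both definitions had been seen on these data. The other, a sum over outcomes no likelier than the observed one, was added as an alternative after seeing the data and gave 237 2-fold rises at 100 nM, 101 at 50 nM and 39 between the doses, in place of 222, 90 and 26, with the same 2, 0, 0 and 3 enzymes called. With no fold threshold, a coefficient of 0.1 left 3 enzymes called higher and 0 lower at 100 nM, in place of 7 and 2, and 0.2 left 0.

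Under the alternatives that can move a fold change (scaling, filter, counts added, dose trend, GLUD1 and GLUD2 summed), 118 of 119 log2 fold changes of the enzymes kept their direction and their side of the 2-fold call, and the largest shift was 0.02. ALDH18A1 at 50 nM turned from -0.003 to 0.0012 with a filter of 50 counts, both within counting error of 0. TMM scaling was computed anew on the genes kept by that filter. The other enzymes at 50 nM were also slightly higher under it, ASNS at 0.9183 in place of 0.9138 and GPT2 at 0.6794 in place of 0.6749.

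All 27 levels were higher without mitochondrially encoded genes in the total, as the smaller total makes them. In TPM for DMSO, 50 nM and 100 nM, ASNS then had 80.3, 149 and 210, GPT2 43.9, 69.1 and 81.4, PCK2 76.1, 126 and 176, PYCR1 170.4, 179 and 181, and ALDH18A1 93.8, 92.2 and 84.2. BCAT1 had 72.9, 84.2 and 89.0, GOT1 51.7, 66.3 and 68.5, GOT2 128, 130.2 and 115, and GLUD1 179, 202 and 207.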
